A study of Homo sapiens with 25 samples.

Results

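The keratin genes were examined as a family in MDA-MB-231, a human triple-negative breast cancer line with mesenchymal features. All protein-coding genes whose symbol is KRT followed by digits and at most 1 letter were taken, which gave 55 of 19970 protein-coding genes, and the keratin-associated protein (KRTAP) genes were kept apart. Of the 55 genes, 28 lay in the type I cluster on chromosome 17 and 27 in the type II cluster on chromosome 12, which also holds KRT18, a type I keratin. The rule reads the gene symbol and no measured value.

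Chromatin was immunoprecipitated and sequenced from 1 cell line in 2 states, control and PML knockdown by lentiviral short hairpin RNA. The labels name neither the hairpin nor a control vector, and they do not say whether replicates were separate cultures. The 25 libraries comprised 3 for PML, 2 for every other target and condition, and an input for each condition; the PML libraries carry no condition in their titles, so depletion of PML could not be checked here. Deposited lists for PML, lamin B1 (LMNB1) and H3K9me3 hold broad domains, and those for H3K4me3 and H3K27ac hold peaks; the 4 H3K27me3 libraries and the inputs were not analysed here. Each target and condition had 1 list, so no value below has a replicate error and no test was made. A gene was inside a domain when its canonical start was, and its promoter was marked when a peak touched the start with 1 kb on either side. A gene outside a list did not pass the threshold the authors set, and the protein or mark may still be there.

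Keratins form the intermediate filaments of epithelial cells, and every filament is built from heterodimers of an acidic type I and a basic type II chain. Each epithelium expresses its own pairs: KRT8 with KRT18 in simple epithelium, KRT5 with KRT14 in the basal layer of stratified epithelium, KRT1 with KRT10 above it, and the hair keratins in the hair shaft. Loss of keratins beside gain of vimentin is a classical sign of the epithelial to mesenchymal transition. H3K9me3 marks compact, silent chromatin, LMNB1 lines the inner nuclear membrane, and PML is the scaffold of PML nuclear bodies. H3K4me3 marks promoters, and H3K27ac marks active promoters and enhancers.

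The sequences below show promoters whose call rests on a peak at the edge of the window, and the summits of strong peaks away from promoters. The first group holds promoters of members with an H3K27ac peak at the edge of the promoter (KRT34 and KRT5) and the upstream start of KRT8 that an H3K27ac peak covered. They run 5′ to 3′ on the minus strand, from 250 bases before to 50 after the start, and are credited to RefSeq (GRCh38.p14). KRT34 lies at chr17:41382257-41382556, KRT5 at chr12:52520345-52520644 and the KRT8 upstream start at chr12:52926420-52926719. Capitals mark a TATA box (TATAAA), and lower case throughout means that none of the 5 motifs searched was found.
KRT34 promoter: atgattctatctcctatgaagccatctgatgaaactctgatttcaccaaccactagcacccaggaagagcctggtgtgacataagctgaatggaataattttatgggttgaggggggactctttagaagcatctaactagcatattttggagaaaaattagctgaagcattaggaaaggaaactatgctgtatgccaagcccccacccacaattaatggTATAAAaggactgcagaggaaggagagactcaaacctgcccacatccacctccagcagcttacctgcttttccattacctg
KRT5 promoter: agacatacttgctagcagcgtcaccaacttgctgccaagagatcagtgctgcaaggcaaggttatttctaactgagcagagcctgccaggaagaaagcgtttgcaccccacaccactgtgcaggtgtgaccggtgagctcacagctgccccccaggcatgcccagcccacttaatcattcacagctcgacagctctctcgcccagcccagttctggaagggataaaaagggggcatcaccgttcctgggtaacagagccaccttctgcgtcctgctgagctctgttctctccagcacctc
KRT8 upstream promoter: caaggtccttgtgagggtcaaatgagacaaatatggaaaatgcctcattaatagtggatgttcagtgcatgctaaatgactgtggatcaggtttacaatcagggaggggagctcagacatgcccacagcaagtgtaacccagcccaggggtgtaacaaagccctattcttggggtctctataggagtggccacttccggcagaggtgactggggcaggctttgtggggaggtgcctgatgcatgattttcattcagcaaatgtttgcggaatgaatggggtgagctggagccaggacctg
RefSeq's table held an entry for 34 of the 55 members, 33 of them at the canonical start used here, and the KRT8 entry lay 21393 bp upstream of it.

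The second group holds the 201 bases around the summits of 4 of the strongest H3K27ac peaks that lay in the clusters but away from promoters in control cells. They were chosen after their values were seen, as those with the highest fold in each cluster, and are given on the plus strand of hg38. The KRT86 window lies at chr12:52280636-52280836 in an intron of KRT86, which encodes a type II hair keratin. The KRT8 window lies at chr12:52927006-52927206 within the annotated KRT8 gene upstream of its canonical start, and the gap window at chr12:52873981-52874181 between KRT78 and KRT8. The KRT10 window lies at chr17:40819326-40819526 within KRT10 and overlaps an annotated coding exon at least in part. Capitals mark a CCAAT box, a motif found on either strand in 22.3% of the 31502 windows of this length around all such peaks.
KRT86 summit: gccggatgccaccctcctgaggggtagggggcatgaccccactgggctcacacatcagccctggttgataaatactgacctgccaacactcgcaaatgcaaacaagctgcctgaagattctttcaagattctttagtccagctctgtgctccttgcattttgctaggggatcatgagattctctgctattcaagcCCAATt
KRT8 summit: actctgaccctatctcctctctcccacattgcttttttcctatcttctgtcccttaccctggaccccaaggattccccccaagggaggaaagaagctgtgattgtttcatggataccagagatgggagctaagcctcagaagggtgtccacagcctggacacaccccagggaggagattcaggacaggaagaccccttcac
gap summit: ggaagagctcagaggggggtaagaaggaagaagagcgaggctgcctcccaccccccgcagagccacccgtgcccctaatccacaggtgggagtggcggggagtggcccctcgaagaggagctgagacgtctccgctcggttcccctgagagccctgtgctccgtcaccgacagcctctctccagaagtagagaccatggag
KRT10 summit: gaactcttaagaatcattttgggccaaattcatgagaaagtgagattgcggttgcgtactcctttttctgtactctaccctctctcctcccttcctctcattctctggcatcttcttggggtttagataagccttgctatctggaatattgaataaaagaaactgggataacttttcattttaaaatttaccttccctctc
The GC content of these windows was 50.7% for KRT86, 53.2% for KRT8, 64.7% for the gap and 39.3% for KRT10, beside a median of 47.8% over all such windows.

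The type I and type II clusters differed in the domains that covered them. PML domains held 22 of the 55 keratin starts, and 13.1% of all protein-coding genes started inside one. All 22 were type I cluster genes, 78.6% of that cluster, and none was on chromosome 12. LMNB1 domains of control cells held 24 keratin starts beside 12.4% of all genes, and again every one was in the type I cluster (85.7% of it). In knockdown cells the LMNB1 count was 26, or 92.9% of the type I cluster, beside 11.0% of all genes. The type II genes lay far from such chromatin, at 1645 to 2402 kb from the nearest border of a PML domain.

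H3K9me3, in contrast, covered most of both clusters. In control cells 41 of 55 keratins (74.5%) started in an H3K9me3 domain, beside 10.0% of all genes, with 20 from the type I and 21 from the type II cluster. In knockdown cells 45 did (81.8%), beside 8.60% of all genes, with 20 and 25 from the 2 clusters. Neighbouring genes share a domain, so these counts reflect 1 domain per list and cluster and not independent genes. The KRTAP genes interleaved with the type I keratins followed the same domains: 34 of the 34 on chromosome 17 started inside a domain in all 5 lists.

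**Figure D1:**
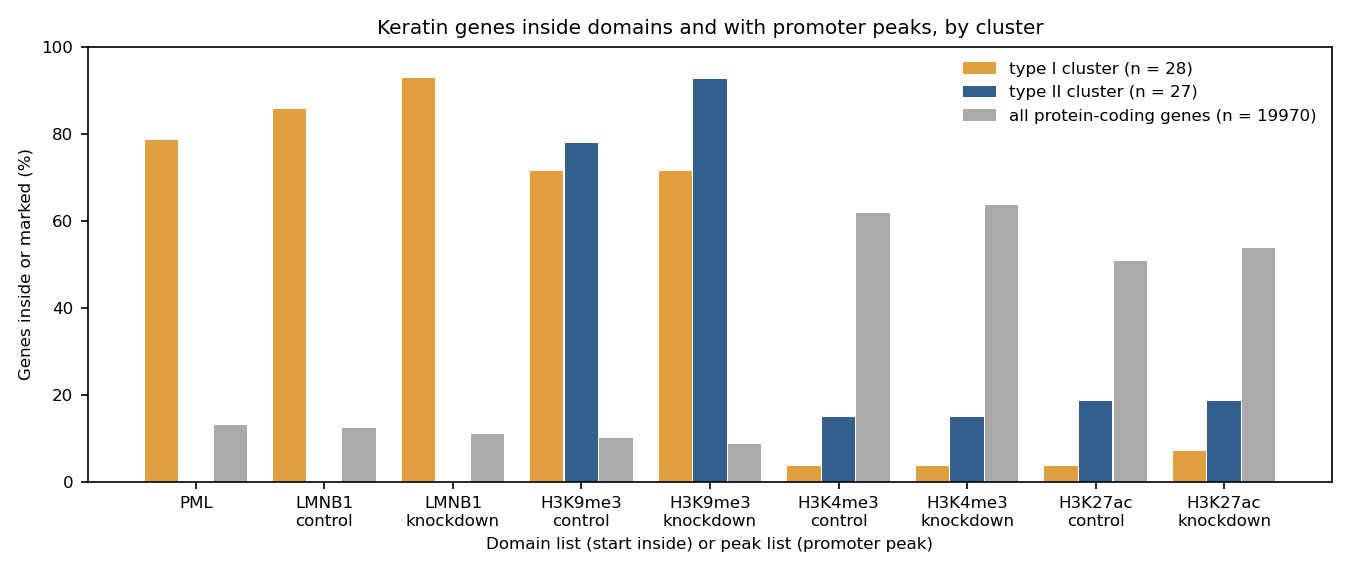
Share of genes (%, y axis) whose start lay inside a domain (5 lists at the left) or whose promoter held a peak (4 lists at the right), with bars for the 28 type I cluster genes, the 27 type II cluster genes and all 19970 protein-coding genes. Type II bars are at 0 for PML and LMNB1, both clusters stand above 70% for H3K9me3, and all keratin bars are under 20% for H3K4me3 and H3K27ac.

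A single domain per list covered the type I cluster, which spans 40654665 to 41624842 of chromosome 17 (hg38; 970 kb). The PML domain ran from 40545001 to 41517000 and covered 88.9% of the cluster. The LMNB1 domain of control cells started at the same coordinate, ended at 41531000 and covered 90.3%, whereas the knockdown domain ended at 41602000 and covered 97.6%. The H3K9me3 domain began further in, at 40871001, and ended beyond the cluster at 41630000, with 77.7% covered in control and 76.8% in knockdown cells. Besides keratins and KRTAP genes, the PML and both LMNB1 domains held only the starts of CCR7, a chemokine receptor, SMARCE1, a subunit of the SWI/SNF remodelling complex, and ENSG00000264058, which overlaps KRT222. None of these domains was among the strongest of its list: by the authors' score the PML domain stood at percentile 54.0 of the 420 PML domains, and the LMNB1 domain at 31.2 in control and 12.9 in knockdown cells. Scores have no stated unit, so they are used only to rank domains within a list.

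These staggered borders divided the type I genes into blocks in chromosome order. The first 8 genes were inside PML and LMNB1 domains but outside H3K9me3: KRT222, KRT24, the inner root sheath genes KRT25, KRT26, KRT27 and KRT28, KRT10 of the suprabasal epidermis, and KRT12 of the cornea. The next 14, from KRT20, an intestinal keratin, through KRT23 and the type I hair keratins KRT31, KRT32, KRT33A, KRT33B, KRT34, KRT35, KRT36, KRT37, KRT38, KRT39 and KRT40 to KRT13 of mucosal epithelium, were inside domains in all 5 lists. KRT15 and KRT19 followed, inside LMNB1 and H3K9me3 but outside PML. The last 4 genes were KRT9 of palms and soles, the basal keratin KRT14, and the stress keratins KRT16 and KRT17, and they were inside H3K9me3 in both conditions but outside PML and, in control cells, outside LMNB1.

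Several of these assignments rested on short distances. KRT15, a keratin of basal cells and the hair follicle bulge, started 1.89 kb outside the PML border, less than the 9 kb grid on which that list was drawn. KRT19, the smallest keratin and a marker of ducts and simple epithelium, started 11.3 kb outside the PML domain and 2.69 kb inside the control LMNB1 domain, which was drawn on a 17 kb grid. KRT12 and KRT20 faced each other across the lower H3K9me3 border, KRT12 at 3.78 kb outside and KRT20 at 14.2 kb inside in control cells. Their positions held in knockdown cells, at 12.8 kb outside and 5.24 kb inside. KRT17 was 5.43 kb inside the upper border of the control H3K9me3 domain.

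The type II cluster spans 52168996 to 52952906 of chromosome 12 (784 kb), and its ends differed from its middle. In control cells 1 H3K9me3 domain, 52302001 to 52854000, covered 70.4% of it. Inside were 21 genes from KRT83, a hair keratin, to KRT78, among them the basal keratin KRT5, the stress keratins KRT6A, KRT6B and KRT6C, and KRT1, KRT2, KRT3 and KRT4 of stratified epithelia. The others inside were KRT71, KRT72, KRT73 and KRT74 of the inner root sheath, KRT75 of the companion layer, the hair keratins KRT82, KRT84 and KRT85, and KRT76, KRT77 and KRT79. Outside were 4 genes at the lower end, KRT80, KRT7, KRT86 and KRT81, and the simple epithelial pair KRT8 and KRT18 at the upper end. KRT8 started 51.1 kb and KRT18 95.1 kb beyond the upper border. The domain stood at percentile 38.4 by score among 430 control H3K9me3 domains, and the knockdown domain at percentile 65.1 among 281.

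**Figure D2:**
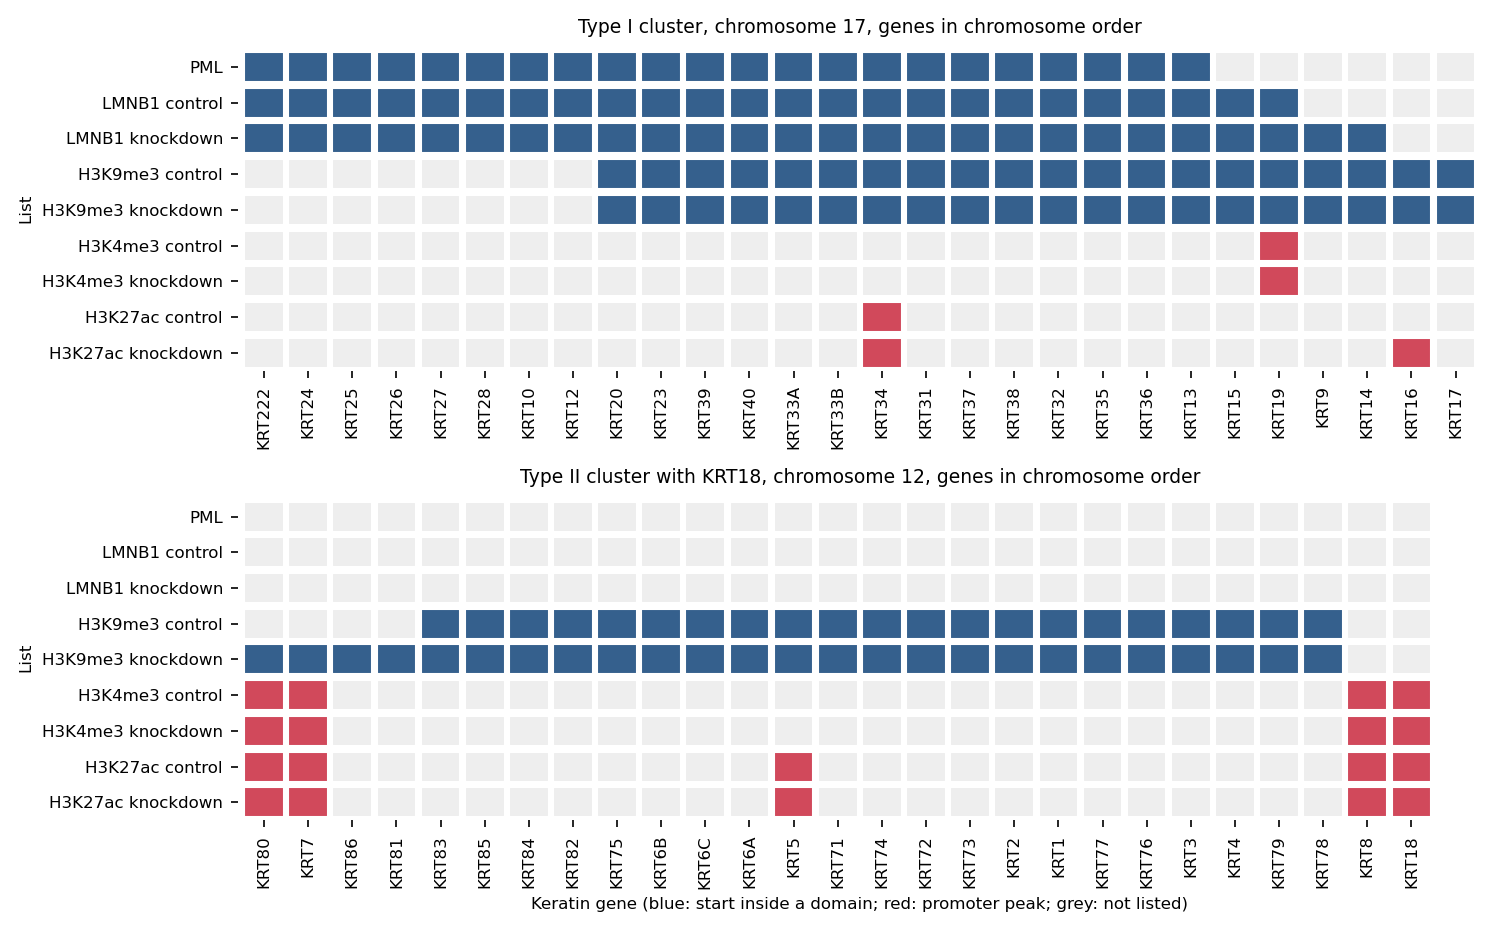
Each column is a keratin gene in chromosome order (type I cluster above, type II cluster below) and each row a list; blue marks a start inside a domain, red a promoter peak and grey a gene not in that list. The blue blocks end at different genes from list to list in the type I cluster, and the red cells cluster at both ends of the type II cluster.

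After PML knockdown the keratin starts that changed domain state all moved into a domain. For LMNB1, 2 of the 31 keratin starts outside control domains were inside knockdown domains, KRT9 and KRT14, beside 0.754% of all such starts. None of the 24 keratin starts inside was outside after knockdown, beside 16.6% of all such starts. For H3K9me3, 4 of 14 starts were newly inside, KRT80, KRT7, KRT86 and KRT81, beside 3.78% of all such starts. None of the 41 starts inside was lost, beside 48.0% of all starts inside control H3K9me3 domains. Both sets of gained starts are neighbours that share 1 shifted border, so each is 1 event and not 2 or 4. The 24 starts that stayed inside lay in 1 LMNB1 domain, and the 41 in 1 H3K9me3 domain per cluster. The absence of losses thus describes these few domains and not independent genes. When starts had to lie at least 50 kb from the border in both lists, none of the 6 counted as newly inside. This setting could hardly give another answer. A start between LMNB1 borders 71 kb apart cannot lie 50 kb from both. The 117 kb shift of the H3K9me3 border left only a narrow stretch where a start could. The KRTAP genes as a whole went both ways, with 33 of 67 starts lost and 21 of 27 gained for H3K9me3.

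The LMNB1 change was a shift of the upper border by 71 kb, with the lower border moved by 1 kb. KRT9 and KRT14 went from 41.1 and 55.9 kb outside the border to 29.9 and 15.1 kb inside it. KRT16 and KRT17 stayed outside, with the border nearer to them: KRT16 at 81.8 kb in control and 10.8 kb in knockdown cells, KRT17 at 93.6 and 22.6 kb. The 71 kb shift exceeds the grid steps of both lists, which were 17 kb for control and 22 kb for knockdown cells. No replicate domain list was at hand, so the spread of this border between replicates was not measured.

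The H3K9me3 domain of the type II cluster grew from 552 to 700 kb. Its lower border lay 117 kb further out in knockdown cells and its upper border 31 kb further out, on grids of 23 and 35 kb, so the upper shift is within 1 grid step. KRT80, a keratin of many epithelia found near desmosomes, went from 110 kb outside to 7.01 kb inside, and it was not counted when at least 50% of the gene body had to be covered. KRT7, a type II keratin of simple and ductal epithelium, went from 68.8 kb outside to 48.2 kb inside. KRT86 went from 27.4 kb outside to 89.6 kb inside, and KRT81, another hair keratin, from 10.5 kb outside to 107 kb inside. KRT8 and KRT18 remained outside, at 20.1 and 64.1 kb. The whole H3K9me3 list shrank at the same time, from 430 domains over 629 Mb to 281 over 361 Mb. On chromosome 17 the H3K9me3 domain changed at the upper end, by 55 kb beyond the last keratin, and at the lower end by 9 kb, so no type I start changed.

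**Figure D3:**
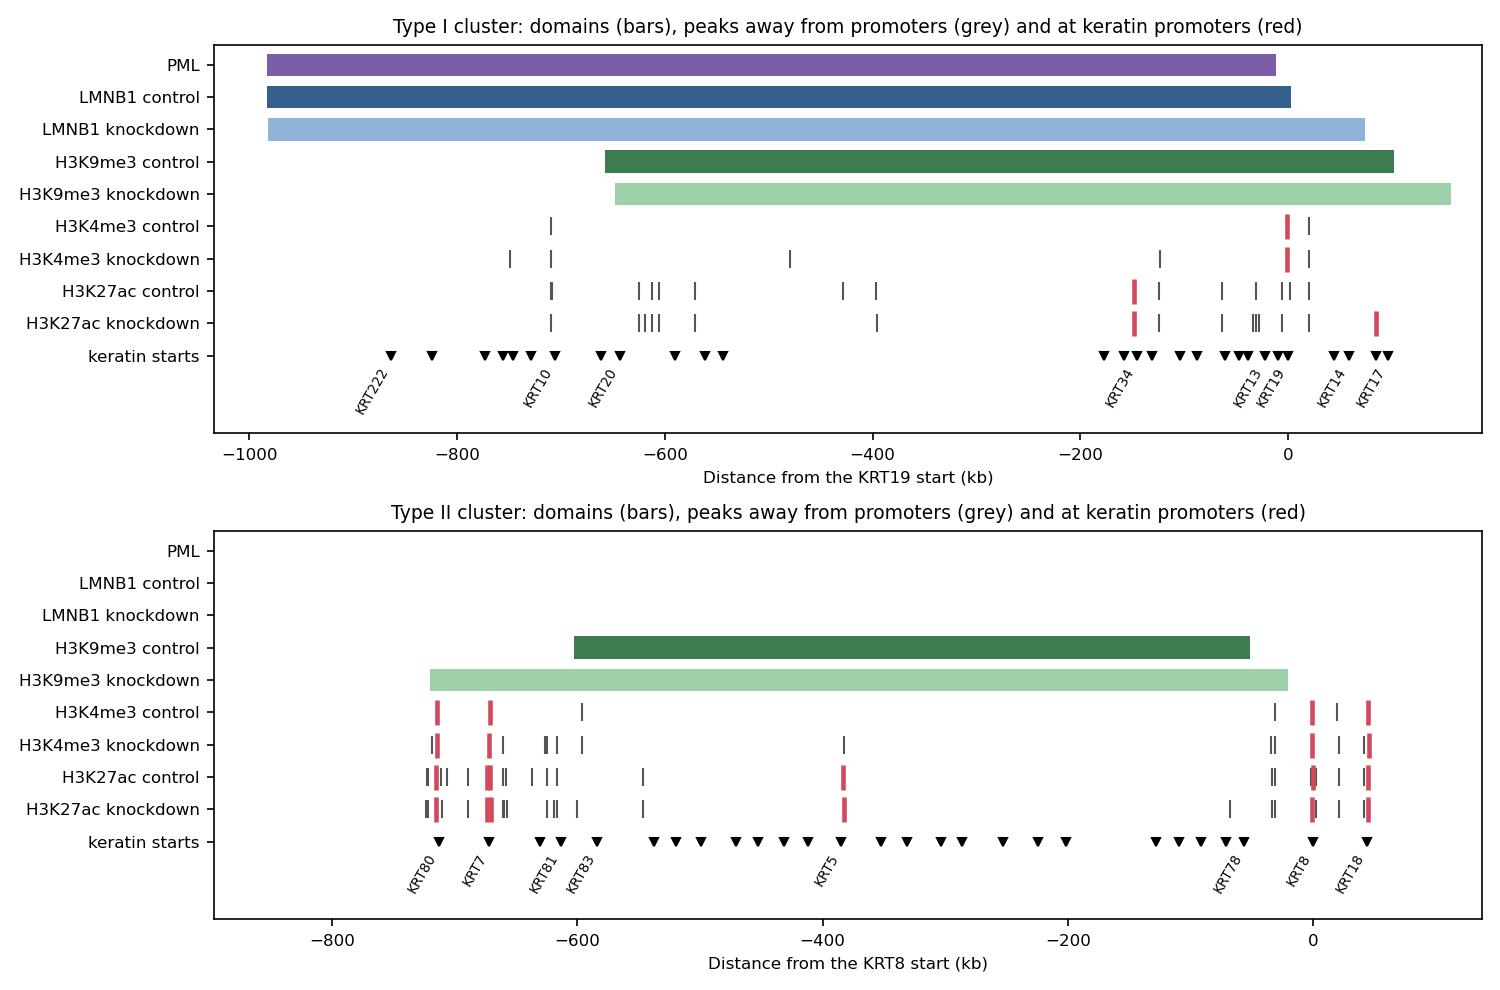
Domains (bars), peaks away from promoters (grey ticks) and peaks at keratin promoters (red ticks) along both clusters, with keratin starts as triangles; the x axis is the distance (kb) from the KRT19 start (type I, above) or the KRT8 start (type II, below). The knockdown LMNB1 bar extends past KRT14, the knockdown H3K9me3 bar extends past KRT80, and grey ticks are dense at both ends of the type II cluster.

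Few keratin promoters were marked. H3K4me3 peaks lay at 5 of 55 keratin promoters (9.09%) in control cells, beside 61.8% of all genes, and at the same 5 in knockdown cells, beside 63.7%. They were KRT80, KRT7, KRT8, KRT18 and KRT19. H3K27ac peaks lay at 6 keratin promoters (10.9%) in control cells, beside 50.8% of all genes, namely KRT80, KRT7, KRT8, KRT18, KRT5 and KRT34. In knockdown cells they lay at 7 (12.7%), beside 53.7%, the same 6 and KRT16. All 5 genes with H3K4me3 are among the 7 genes listed here as simple epithelial keratins, a list drawn with earlier results of these data known and which includes KRT80, a keratin of many epithelia, so the match is no independent evidence. The other members of that list, KRT20 and KRT23, had neither mark.

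By role, the remaining groups were almost empty of promoter peaks. Over all genes, 10.0% started in control and 8.60% in knockdown H3K9me3 domains, and 13.1% in PML domains. H3K4me3 promoter peaks lay at 61.8% of all genes in control and 63.7% in knockdown cells. For H3K27ac these shares were 50.8% and 53.7%. Genes of a role often share a domain, so the domain counts describe blocks of the clusters and not roles. The 3 basal keratins KRT5, KRT14 and KRT15 were all in H3K9me3 domains and had no H3K4me3, with H3K27ac at the canonical promoter of KRT5 only. When any protein-coding transcript start counted, KRT15 also had H3K27ac in both lists. The 5 stress keratins, which skin switches on after wounding, were all in H3K9me3 domains, with the KRT16 peak of knockdown cells as their only mark. Of the 13 suprabasal and mucosal keratins 10 were in H3K9me3 domains in both conditions, and none had a promoter peak. Of the 9 inner root sheath and companion layer keratins 5 were in H3K9me3 domains and 4 in PML domains, without a promoter peak. Of the 17 hair shaft keratins 15 were in H3K9me3 domains in control and 17 in knockdown cells, 11 in PML domains, and KRT34 alone had a promoter peak. With any protein-coding transcript start, KRT86 also had H3K27ac in the knockdown list.

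KRT8 and KRT18 encode the pair that simple epithelia express first in development, and they are transcribed away from each other on opposite strands, with the annotated span of KRT8 reaching over the KRT18 start. Fold values below are the authors' enrichment for each peak, and a percentile is the rank among all peaks of the same list; fold is not on 1 scale across lists. At KRT18 the H3K4me3 fold was 23.0 in the control list (percentile 81.9) and 66.9 in the knockdown list (95.4). Its H3K27ac fold was 17.2 (91.4) in control and 37.0 (97.8) in knockdown cells, the highest H3K27ac percentile of any keratin promoter in the control list. At KRT8 the H3K4me3 fold was 27.5 (88.2) in control and 46.9 (86.9) in knockdown cells. Its H3K27ac fold was 6.44 (57.9) and 9.18 (64.2), so KRT8 ranked with KRT18 for H3K4me3 and lower for H3K27ac. The promoter peaks of a whole list also had a higher median fold after knockdown, 30.0 against 15.5 for H3K4me3 and 9.48 against 6.91 for H3K27ac, so a higher fold alone is no sign of a change at 1 gene.

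KRT80 and KRT7 stand at the other end of the cluster, inside the H3K9me3 domain of the knockdown list. The KRT80 percentiles lay far apart between the conditions: its H3K4me3 fold was 9.68 (percentile 47.7) in control and 63.8 (94.5) in knockdown cells. Its H3K27ac fold was 6.98 (61.9) and 37.7 (97.9), in peaks 7602 and 8487 bp wide that covered the start. KRT7 had a similar percentile in both H3K4me3 lists, with a fold of 19.9 (76.0) in control and 29.0 (72.4) in knockdown cells. H3K27ac at KRT7 came as a pair of peaks around the start: the upstream one had a fold of 6.38 (57.5) and 12.1 (74.5), and the downstream one 4.80 (41.7) and 7.09 (52.7). Ranks from lists of different lengths show no change by themselves. Both genes therefore had H3K4me3 and H3K27ac peaks at their promoters while an H3K9me3 domain of the knockdown list covered their starts, as did 340 of all 680 genes newly inside for H3K4me3 and 246 for H3K27ac.

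KRT19 was the only keratin with a promoter peak of H3K4me3 inside an H3K9me3 domain in control cells. The peak was weak, with a fold of 4.33 (percentile 18.8) in control and 3.63 (10.0) in knockdown cells. Its -log10 q was 6.79 and 3.52, and its nearest edge lay 667 and 356 bp from the start, inside the gene. No H3K27ac peak lay at this promoter. The control peak was not counted with promoters of 500 bp on either side, nor the knockdown peak at a -log10 q of at least 5. KRT19 is widely used as a marker of carcinoma cells, and its H3K4me3 folds here were the lowest of the 5 marked keratins in both lists.

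The remaining marked promoters rested on peaks at the edge of the window or near threshold. At KRT5, the type II partner of KRT14, the H3K27ac peak had a fold of 3.55 (percentile 21.4) in control and 7.44 (54.9) in knockdown cells, but its nearest edge lay 978 and 934 bp upstream of the start. At KRT34, a hair keratin, the fold was 10.3 (77.9) and 8.54 (61.1), with the edge at 963 and 986 bp and the summit 2359 and 2388 bp into the gene. Neither peak reached the 300 bases printed above, and with promoters of 500 bp on either side neither gene counted as marked. At KRT16, the stress keratin marked in the knockdown list alone, the fold was 2.17, at percentile 1.0 of its list, with a -log10 q of 1.65, so the gene was not counted at a -log10 q of at least 5. The KRT16 promoter window is also 95.6% identical over 2008 bases to another stretch of chromosome 17, at 16831830 to 16833835, so reads from the 2 places may not be told apart.

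**Figure D4:**
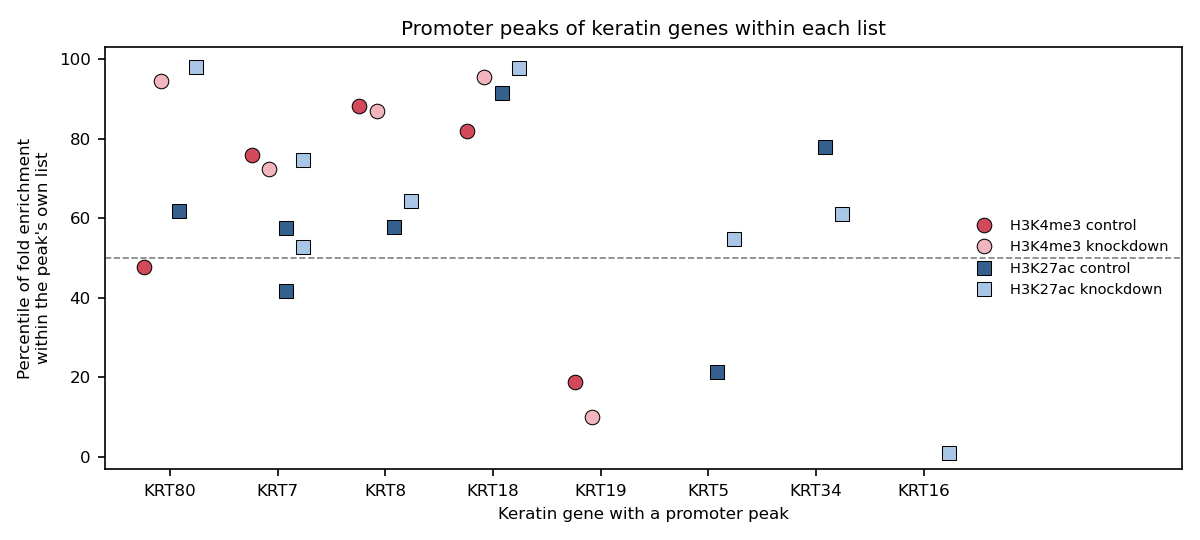
Percentile of fold enrichment within the peak's own list (y axis) for every promoter peak of a keratin gene (x axis), with circles for H3K4me3 and squares for H3K27ac, dark for control and pale for knockdown cells; the dashed line is the median peak of a list. In the knockdown lists KRT18 and KRT80 stand above percentile 90 for both marks, and KRT19 and KRT16 lie at percentile 20 or lower.

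Marks in 1 condition only were rare. No keratin promoter had H3K4me3 in the control list only, beside 0.0951% of all genes, and none in the knockdown list only, beside 1.79%. None had H3K27ac in the control list only, beside 0.666%, and KRT16 alone had it in the knockdown list only, beside 3.24%. These counts over 55 genes are near the background shares, so they are no result about keratins. Over the cluster spans, all 3 control H3K4me3 peaks of the type I cluster and all 7 of the type II cluster overlapped a knockdown peak. Genome-wide, 98.8% of control H3K4me3 peaks did. For H3K27ac 22 of 23 and 21 of 23 control peaks did, beside 91.6% of all control H3K27ac peaks. These control counts are near the shares of all peaks, so they are no result about keratins. Of the knockdown H3K27ac peaks 19 of 23 and 19 of 24 overlapped a control peak, beside 84.5% of all. The knockdown H3K4me3 lists held 4 of 7 and 8 of 15 peaks without a control partner, the highest at a fold of 6.15, in a genome where 73.2% of knockdown H3K4me3 peaks had a partner.

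Inside domains the share of marked promoters was lower among the keratins than over all genes of the same state, which is a description of neighbouring genes and not a test. Within control H3K9me3 domains 1 of 41 keratins (2.44%) had H3K4me3 beside 509 of 1997 genes (25.5%), and 2 of 41 (4.88%) had H3K27ac beside 19.2%. Within PML domains 0 of 22 had H3K4me3 beside 42.7% of 2612 genes, and 1 of 22, KRT34, had H3K27ac beside 35.1%. The 8 type I genes in PML and LMNB1 domains without H3K9me3 had no H3K4me3, beside 56.2% of all genes in that state. Outside all 3 kinds of control domain 4 of 6 keratins had H3K4me3, beside 66.6% of all genes there. The 2 without it were KRT86 and KRT81.

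Keratins without a promoter peak were not equally far from the nearest one. For control H3K27ac the 27 such genes of the type I cluster lay 1.69 to 63.3 kb from a peak, with a median of 18.3 kb, whereas the 22 of the type II cluster lay 2.35 to 167 kb away, with a median of 49.4 kb. Knockdown medians were 16.8 and 44 kb. For H3K4me3 the medians were 46.9 and 125 kb in control and 34.4 and 58.4 kb in knockdown cells. Genes of a cluster share these nearest peaks.

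Peaks away from promoters were also unevenly spread. In the type I cluster H3K27ac peaks occurred within the H3K9me3 domain, 12 in control and 13 in knockdown cells over 754 kb, which is 15.9 and 17.2 per Mb. All control H3K9me3 domains together held 4.11 and 4.52 such peaks per Mb. In the type II cluster the control H3K9me3 domain held 1 peak in control and 3 in knockdown cells over 552 kb, or 1.81 and 5.43 per Mb. The lower end outside the domain held 10 peaks in both lists over 133 kb, or 75.2 per Mb, and the upper end 6 and 5 over 98.9 kb. Most of the type II cluster's H3K27ac peaks away from promoters thus lay at its lower and upper ends, outside the control H3K9me3 domain. The lower end holds KRT80, KRT7, KRT86 and KRT81. The upper end holds KRT8, KRT18 and part of the gap between KRT78 and KRT8, where the nearest start to some peaks was KRT78. KRTAP promoters accounted for further H3K27ac in the type I cluster, at 8 of the 34 on chromosome 17 (23.5%) in both lists. That is below the 50.8% of all genes in control and 53.7% in knockdown cells.

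The strongest of these peaks lay in the KRT86 intron whose summit sequence is printed above, at 52278837 to 52282100 of chromosome 12. Its H3K27ac fold was 27 in control cells (percentile 97.6) and 33.4 in knockdown cells (96.8). It covers the start of the long non-coding RNA ENSG00000257830. Knockdown H3K4me3 peaks with a fold of 6.15 (percentile 31.7) and 4.72 (21.0) touched this H3K27ac peak, where the control H3K4me3 list had none. This stretch was outside H3K9me3 domains in control and inside in knockdown cells. KRT86 and KRT81 overlap on opposite strands, and the KRT81 promoter window is 98.7% identical over 933 bases to a stretch within KRT86, so signal at these genes may be shared.

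A second strong peak, at 52924061 to 52927931, lay within the annotated KRT8 gene and covered its upstream RefSeq start. Its H3K27ac fold was 14.5 in control cells (percentile 87.8) and 25.6 in knockdown cells, with H3K4me3 peaks of 2.98 and 5.98 touching it. The canonical KRT8 start had the stronger H3K4me3, at 27.5 and 46.9. The gap peak between KRT78 and KRT8, at 52873668 to 52875135, had an H3K27ac fold of 13.5 and 20.6 and an H3K4me3 fold of 8.95 and 18.1. The gap peak was outside the H3K9me3 domain in control and inside in knockdown cells. That rests on the upper border, whose 31 kb shift is within 1 grid step of 35 kb. No annotated gene overlaps the printed gap window.

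In the type I cluster the strongest peaks were lower in fold. The H3K27ac peak within the KRT10 gene, at 40819170 to 40819903 of chromosome 17, had a fold of 11.0 (percentile 80.0) in control and 20.3 in knockdown cells. An H3K4me3 peak with a fold of 28.7 and 52.0, at percentile 89.7 of both lists, lay over it and over the start of the antisense RNA KRT10-AS1 at 40819101. Its summit in control cells was 3.19 kb from the KRT10 start. The nearest edge of this H3K4me3 peak lay 2.30 kb from that start in control and 2.19 kb in knockdown cells, so KRT10 itself did not count as marked. With promoters of 2500 bp on either side KRT10 counted for H3K4me3 in both lists. This peak was the only control H3K4me3 peak in the stretch of the cluster below the H3K9me3 domain. Inside all 5 kinds of domain, H3K27ac peaks with a fold of 10.1 near KRT31, a hair keratin, and 8.87 near KRT20 had knockdown values of 7.87 and 7.54. An H3K27ac peak 3.27 kb from the canonical KRT15 start had a fold of 8.56 in control and 16.4 in knockdown cells. It lay at a KRT15 promoter when any protein-coding transcript start counted. Another, 20.1 kb from the KRT19 start, had 7.64 and 19.0, so both of these were higher in the knockdown list while those near KRT31 and KRT20 were lower.

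Another non-coding start stood out within the type II H3K9me3 domain. The H3K4me3 peak over the start of ENSG00000257829, a long non-coding RNA at 52308371 near KRT83, had a fold of 2.36 (percentile 1.69) in control and 18.9 (61.0) in knockdown cells. It was the only control H3K4me3 peak in that domain. The start of KRT7-AS, antisense to KRT7, lay under H3K27ac peaks with a fold of 5.71 and 5.12.

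Promoter sequence also differed in its medians between marked and unmarked keratins, with overlapping ranges. Over the 300 bases around the canonical start, the median GC content was 48.3% for the 55 keratins and 63.7% for all genes, and the median ratio of observed to expected CpG was 0.188 and 0.776. The 5 promoters with H3K4me3 had a GC content of 61.0 to 74.0%, with a median of 65.7%. The 50 others had a median of 47.3% and a CpG ratio of 0.171, lower than the 55.7% and 0.334 of all genes without the peak. These others reached a GC content of 67.3% (KRT79) and a CpG ratio of 0.715 (KRT72). KRT79, KRT17 and KRT9 lay within the GC range of the marked promoters. KRT18, at 74.0% and 0.881, and KRT7, at 72.7% and 0.732, were the richest in CpG of the marked keratins. KRT80 had a high GC content (65.7%) but a CpG ratio of 0.158, below the family median, and KRT8 had 61.0% and 0.251. Marked keratins thus did not all have CpG-rich starts.

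Simple motifs were counted on both strands of the same windows, as matches of letters and not as sites of binding. TATAAA occurred in 27 of 55 keratin promoters (49.1%) and in 9.73% of all promoters. CCAAT occurred in 45.5% of keratin and 36.0% of all promoters. GGGCGG, the GC box, occurred in 13 keratin promoters (23.6%) beside 61.3% of all. It was in 4 of the 5 with H3K4me3 and 9 of the 50 without, beside 76.6% and 36.5% of all such genes. The AP-1 motif TGACTCA, whose reverse strand reads TGAGTCA, occurred in KRT16 alone, beside 3.58% of all promoters, and CACGTG in 2 keratins, beside 8.75%. KRT34 is an example in the sequence above, with a TATA box shortly before the start and no CpG.

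**Figure D5:**
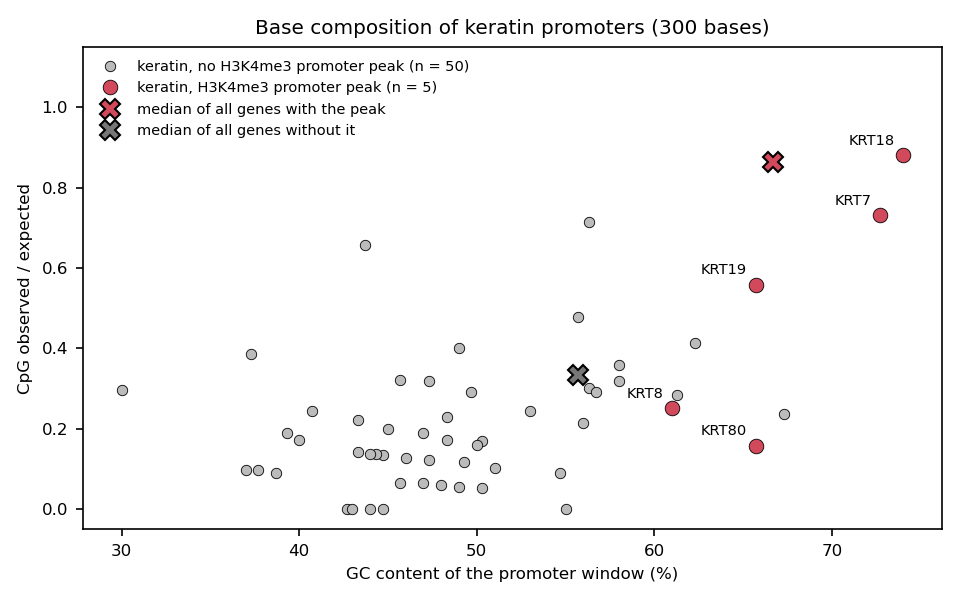
GC content (%, x axis) and ratio of observed to expected CpG (y axis) of the 300-base promoter window of each keratin, red for the 5 with an H3K4me3 peak in control cells and grey for the 50 without; crosses are medians of all protein-coding genes with and without the peak. The red points lie at 61.0 to 74.0% GC, and KRT8 and KRT80 are low in CpG.

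Recent duplication limits what can be read from single members. Of the 55 promoter windows of 1 kb on either side, 10 had another genomic stretch at least 95% identical over at least 200 bases: KRT16, KRT17, KRT31, KRT33A, KRT33B, KRT34, KRT8, KRT81, KRT83 and KRT85. KRT31, KRT33A, KRT33B and KRT34 resemble each other over 359 to 373 bases, at 95.6 to 96.5% identity. The sources used here do not say how reads with several matches were treated.

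Genes that work with keratins were scored in the same way. Of 12 other intermediate filament genes none started in a domain of any list, beside 8.60 to 13.1% of all genes, so this count is near the background. VIM (vimentin), NES (nestin) and BFSP1 (a lens filament protein) had H3K4me3 in both conditions, 3 of 12 beside 61.8% of all genes in the control list. VIM had an H3K4me3 fold of 30.2 (percentile 91.2) in control and 45.6 (86.0) in knockdown cells, above KRT8 and KRT18 in the control list and below both in the knockdown list. SYNM (synemin) had H3K4me3 in the knockdown list only, with a fold of 10.9. Of 13 desmosome genes, which anchor keratin filaments between cells, 7 had H3K4me3 in both conditions, beside 61.8% of all genes in control cells, and none lay in a domain, so neither count is a result about the group. DSP (desmoplakin, which binds keratins) and PKP2 (a plakophilin) had H3K27ac in the knockdown list only, with a fold of 5.96 and 6.42, beside 3.24% of all genes. Of 8 plakin and hemidesmosome genes 7 had H3K4me3 and 6 had H3K27ac in both conditions, beside 61.8% and 50.8% of all genes in control cells, and DST alone lay in a PML domain.

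The cornified envelope, which forms in the outermost epidermis beside the suprabasal keratins, was represented by 15 genes, and none had a promoter peak. In control cells 9 were in H3K9me3 domains, 6 in LMNB1 and 5 in PML domains, beside 10.0, 12.4 and 13.1% of all genes, and in knockdown cells TCHH, RPTN and TGM3 joined for H3K9me3, so 12 were inside. Of 18 regulators of keratin genes 9 had H3K4me3 in both conditions, among them KLF4 and KLF5, beside 61.8% of all genes in control cells, and JUN alone lay in PML and LMNB1 domains. TP63, the master regulator of stratified epithelium, had H3K4me3 with a fold of 4.38 and 5.30, and H3K27ac in the control list only, with a fold of 4.04.

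Marker genes of the line were scored in the same way. Of 8 mesenchymal and basal line markers 7 had both marks in both conditions, all but SPARC, beside 61.8% of all genes with H3K4me3 and 50.8% with H3K27ac in control cells. Of 9 luminal and epithelial markers 6 had H3K4me3, near the 61.8% of all genes, while H3K27ac lay at CLDN4 in control cells and at CLDN4, EPCAM and ERBB3 in knockdown cells, and CDH1 (E-cadherin) had neither mark. FOXA1, a luminal transcription factor with H3K4me3, started in PML and LMNB1 domains and, in control cells only, in an H3K9me3 domain. None of the 5 keratinocyte markers and none of the 4 markers of fibroblasts, blood or endothelium had a promoter peak.

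The nearest neighbours of the clusters shared the PML and LMNB1 domains below the type I cluster and lay outside all domains elsewhere. Below the type I cluster SMARCE1 lay in the same PML and LMNB1 domains as the keratins but had H3K4me3 (fold 35.6 in control, 84.7 in knockdown cells) and H3K27ac (45.3 and 54.0), whereas CCR7 had no peak. Above it EIF1, a translation initiation factor, lay outside all domains, with an H3K4me3 fold of 51.4 and 89.5. Next to KRT18, EIF4B, also a translation initiation factor, was outside all domains, with an H3K4me3 fold of 18.1 and 62.5. On the far side of KRT80, SMIM41, ATG101 and NR4A1 were outside all domains, and ATG101, an autophagy gene, had an H3K4me3 fold of 19.6 and 40.8.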

How the data were processed

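Chromatin immunoprecipitation sequencing was done on cells fixed with disuccinimidyl glutarate and formaldehyde, per the labels' protocols. The submitters' processing notes list, without roles, hg38, deepTools, MACS2 2.2.7.1, Picard 1.104 and BWA 0.7.12-r1039. The deposited domain lists give 1 score per domain with no stated unit, and EDD is named only in the file names. The deposited peak lists, in the MACS2 layout, give a fold enrichment (a ratio) per peak. They also hold a deposited -log10 q per peak, with a lowest value of 1.30 or 1.31. The peak names show that replicates 1 and 2 were called together; for domains the sources used here do not say. Conditions of the peak files, written ct and pml, were read as control and PML knockdown, an assumption. Read depth is unknown, so no interval could be derived from counts.

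Groups followed the labels. GENCODE release 44 gave 19970 protein-coding genes on chromosomes 1 to 22 and X, each with its Ensembl canonical start. Any overlap of 1 bp counted. A promoter was marked in 1 condition only when it held a peak of 1 list, none of the other, and no peak overlapping one of the other list outside it. The clusters run from the first to the last keratin gene. Work used Python 3.11.15, pandas 2.3.3, numpy 2.4.6, matplotlib 3.10.9 and BLAST 2.17.0, and bedtools 2.31.1 for a check of overlaps; the scoring was tested on simulated lists. Named genes were members with a promoter peak, with a state differing between conditions or next to a border, the cluster neighbours, and in other lists those marked in 1 condition only and up to 4 others; peaks away from promoters and non-coding starts were named after their values were seen. Members, lists and roles were chosen with earlier results of these data known. Alternatives were other definitions of inside, domain lengths and borders, promoter sizes, peak thresholds, starts and cluster bounds; RefSeq starts were added after the data were seen. Identity between keratin proteins was not analysed here.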

Additional observations from a re-analysis of the deposited data

How the results depend on the processing

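Of 82 alternative values, 68 were unchanged or, for counts, within 1.5 times, and 14 moved. Coverage has no replicate spread, so any change in it is given as moved. With starts required to lie at least 50 kb from the border in both lists, 0 keratins gained LMNB1 and 0 gained H3K9me3. For LMNB1 this was fixed in advance, because the border moved by only 71 kb. For H3K9me3 the 117 kb shift left little room for any other count. H3K4me3 in the control list only rose from 0 to 1 (KRT19) at a -log10 q of at least 5 and with equal numbers of peaks. With promoters of 2500 bp on either side, 1 keratin (KRT5) had H3K4me3 in the knockdown list only and 1 (KRT19) had H3K27ac in the control list only. With equal numbers of peaks, 0 had H3K27ac in the knockdown list only, and at a -log10 q of at least 5 that single gene was KRT5 in place of KRT16. With clusters widened by 100 kb on either side, coverage of the type I cluster was 82.2% for PML, 83.4% and 89.5% for control and knockdown LMNB1 and 64.9% and 68.8% for control and knockdown H3K9me3. That of the type II cluster was then 56.1% and 71.1% for control and knockdown H3K9me3. With promoters of 500 bp, KRT5 and KRT34 lost H3K27ac in both lists and KRT19 lost H3K4me3 in the control list. When any protein-coding transcript start counted, KRT15 was added for H3K27ac in both lists and KRT86 in the knockdown list. With RefSeq starts, added after the data were seen, KRT8 lost H3K4me3 in the control list. Apart from the constructions themselves, the cause of these moves was not tested. The call of KRT80 as inside H3K9me3 after knockdown was lost when at least 50% of the gene body had to be covered. No paired analysis was possible because each target and condition has 1 list and no value per replicate; for the same reason no replicate could be left out. Unknown depth and grids of 9 to 35 kb limit how finely borders and missing peaks can be read.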
